A study of Mus musculus with 96 samples.

Results

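The BRE time course followed gene expression over 24 h in epidermis taken from the back of mice in which the circadian clock ran in the brain and stayed off in the skin. It consists of the 24 libraries that the sample titles assign to BRE, of 96 in the whole series, with 4 mice at each of 6 circadian times (CT) set 4 h apart, where CT0 is the time of lights on. BRE mice were Arntl stopFL/stopFL, with K14Cre wt/wt and Syt10-Cre tg/wt. They were set against 3 other genotypes with 24 libraries each. EpiRE mice were Arntl stopFL/stopFL, K14Cre tg/wt and Syt10-Cre wt/wt, so the epidermal clock was restored without that of the brain. RERE mice were Arntl stopFL/stopFL, K14Cre tg/wt and Syt10-Cre tg/wt, with both clocks restored. WT mice were Arntl wt/wt, K14Cre wt/tg and Syt10-Cre tg/wt, and thus carried both drivers with intact Arntl. All mice were C57BL/6 females of 8 weeks, fed chow freely and kept in constant darkness for 156 to 176 h before sampling. Polyadenylated RNA of epidermal cells freed with dispase was sequenced, and expression is given as log2 RPKM, the log2 of reads per kilobase of gene, scaled to library size in units of M reads. The question was which epidermal genes still follow the time of day when a clock runs in the brain and not in the epidermis.

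The molecular clock is a feedback loop in which BMAL1, the product of Arntl, pairs with CLOCK or NPAS2 and activates genes that carry E-boxes. Among these are the Per and Cry repressors, which block BMAL1, and Nr1d1 and Nr1d2, which encode the REV-ERB receptors that repress Arntl, Npas2 and Cry1. Dbp, Tef and Hlf are further targets and carry the rhythm to other genes. Without BMAL1 the loop stops in a cell, but the cell can still receive daily signals such as adrenal glucocorticoids, body temperature and nutrients, which the brain clock organises through the adrenal gland, the nervous system and behaviour. The Syt10 promoter drives Cre in the suprachiasmatic nucleus, the brain's central clock, and in some other neural tissue. The K14 promoter drives Cre in basal keratinocytes, so immune cells and melanocytes of the epidermis are not expected to be restored by it. The stopFL allele holds a transcriptional stop that Cre removes.

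Recovered reads came to 11.1 to 18.6 M in the BRE libraries and to 11.1 to 19.9 M in all libraries. In BRE they varied with CT, with means of 17.1 M at CT0, 16.3 M at CT4, 15.4 M at CT8, 13.3 M at CT12, 14.6 M at CT16 and 13.1 M at CT20, and the part of depth in the rhythms below was not tested beyond the read-weighted fits given with them. Keratinocyte genes dominated the BRE libraries, with medians of 5930 RPKM for Krt5, 2570 for Krt14, 2330 for Krt1 and 10300 for Krt10. Epidermal T cells and Langerhans cells were represented by a median of 5.47 RPKM for Cd3e and 5.18 for Cd207. The defining genes of fibroblasts, endothelium and fat were near 0, with medians of 0.439 RPKM for Col1a1, 0.109 for Pecam1 and 0.0136 for Adipoq, which had 6 reads in all BRE libraries together. Fewer cells of a type and less RNA per cell cannot be told apart in such bulk samples. The labels give 4 mice at each time, so the p-values are over animals. The CT of a BRE library is the one given by the authors' column names.

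The library labelled BRE CT20 replicate 1 stood apart from its genotype in the clock genes. Over 19 core clock genes each library was placed between the mean of the other BRE libraries of its CT, set at 0, and the mean of the other WT libraries of its CT, set at 1. The library labelled BRE CT20 replicate 1 lay at 0.793, against -0.093 to 0.082 for the 20 BRE libraries of CT0 to CT16. The WT libraries lay between 0.518 and 1.55. The other 3 BRE libraries of CT20 lay at -0.453 to 0.148, measured from a mean that includes the library apart. Results are given with all 24 libraries, and the counts, shares and slopes also without this library, a choice made for the shares and slopes after the data were seen. Among the genes called in BRE whose values are given by library below, E2f1 lost its call without it (adjusted p = 0.0542). What sets it apart was not tested.

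Genes that followed CT in BRE were few. A cosine of 24 h was called in 125 of 10970 genes whose BRE mean reached 0 log2 RPKM, that is 1 RPKM (1.14%), at an adjusted p under 0.05 by limma's moderated F test with Benjamini-Hochberg adjustment, and 2071 genes had an unadjusted p under 0.05. Without the library labelled BRE CT20 replicate 1 the count was 154, of which 114 were among the 125. The same fit called 2136 of 11032 genes in RERE (19.4%) and 3675 of 11087 in WT (33.1%). In EpiRE it called 0 of 11061 (0%), with 1397 genes under an unadjusted 0.05 and 0 calls by limma-voom on recovered reads. The called BRE rhythms had a median amplitude, the height of the cosine above its mean, of 0.261 on the log2 scale, and ran between 0.0993 and 1.53. In 18 genes the amplitude was at least 0.5 and in 3 at least 1, namely Spock2, Fkbp5 and the microRNA locus Mir1942, which averaged 0.07 log2 RPKM and was named after its values were seen. With CT as 6 separate times in place of a cosine, 31 of 10970 genes were called (0.283%), 19 of them also by the cosine, and 68 without the library labelled BRE CT20 replicate 1. The factor called 1676 of 11032 genes in RERE (15.2%), 199 of 11061 in EpiRE (1.8%) and 2249 of 11087 in WT (20.3%), so EpiRE, with 0 calls by the cosine, had more calls by the factor than BRE.

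Peak times fell into 2 clusters. Of the 125 genes, 42 (33.6%) peaked between CT0 and CT4, around the start of the rest phase of a mouse, and 37 (29.6%) between CT12 and CT16, around the start of activity. The other 4 bins of 4 h held 9 to 15 genes each. Without the library labelled BRE CT20 replicate 1 the same bins held 53 (34.4%) and 42 (27.3%) of 154 genes, and 29 (18.8%) peaked between CT4 and CT8. In WT the 3675 genes were spread more evenly, with 11.5% to 24.9% in each bin. The genes called in RERE were also unevenly spread. Of these, 39% peaked between CT12 and CT16, 20.2% between CT0 and CT4, 18.9% between CT20 and CT24 and 3.23% between CT4 and CT8. Among all 10970 tested BRE genes, whether called or not, 3651 had a fitted peak between CT22 and CT4 and 2353 between CT10 and CT16. In the same windows the called genes were even, with 47 and 48.

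**Figure D1:**
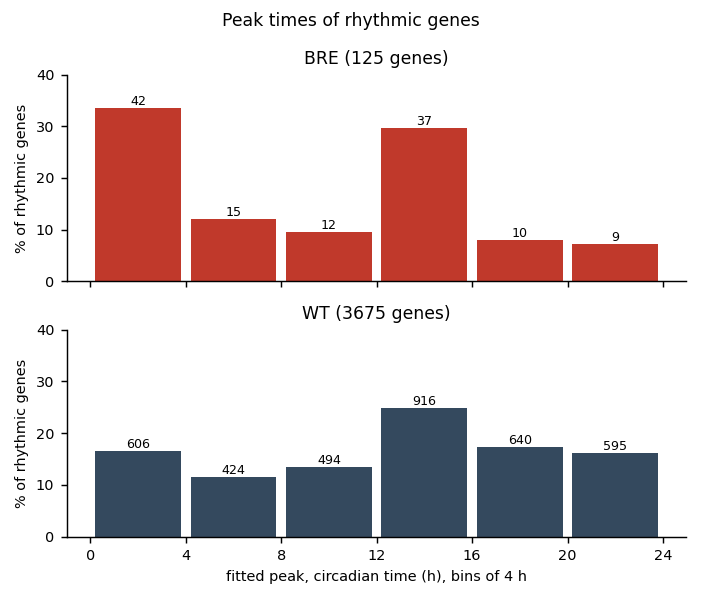
Share of rhythmic genes by fitted peak time in bins of 4 h, for the 125 genes called in BRE (above) and the 3675 called in WT (below), with the number of genes on each bar. BRE has its highest bars at CT0 to CT4 and CT12 to CT16, 33.6% and 29.6% of its genes.

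The count of BRE rhythms depended on single libraries. Leaving out 1 BRE library at a time gave 32 to 348 genes. The lowest count came without CT16 replicate 4 and the highest without CT16 replicate 3. Of the 24 libraries, 12 lowered the count by over 1.5 times when left out, 4 raised it by over 1.5 times, and 8 did neither. Those that lowered it were CT0 replicates 2, 3 and 4 with 73, 37 and 39 genes, CT4 replicates 1 and 4 with 79 and 54, CT8 replicate 2 with 59, CT12 replicates 1 to 4 with 49, 54, 41 and 43, CT16 replicate 4 with 32 and CT20 replicate 2 with 83. Those that raised it were CT4 replicate 3 with 241 genes, CT8 replicate 4 with 232, CT16 replicate 3 with 348 and CT20 replicate 3 with 312. Many genes thus lie near the threshold, and a named gene is described below by its values first. Most named genes were picked by their calls or p-values in these same libraries. Values that do or do not overlap between 2 times thus describe a gene and are no separate test. In the authors' deposited tables, no BRE gene had a q-value under 0.05 in both JTK_CYCLE and BIOCYCLE. JTK_CYCLE alone gave 3 such genes in the authors' deposited table, 3110082I17Rik, R3hdm2 and Sh3d21, each at 0.0227, and the smallest BIOCYCLE q-value in BRE was 0.513. Of the 125 genes, 124 had a p-value under 0.05 in both of the authors' deposited analyses, which used the same libraries.

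**Figure D2:**
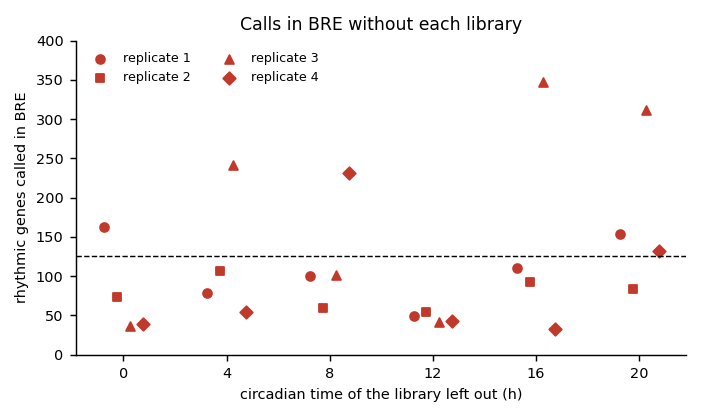
Number of genes called rhythmic in BRE when 1 library is left out, by the CT of that library, with a symbol for each replicate number and a dashed line at the 125 genes of all 24 libraries. The counts run between 32 without CT16 replicate 4 and 348 without CT16 replicate 3.

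Most clock genes moved little with CT in BRE epidermis beside WT. Of 18 core clock genes tested, the limma fit called 1, Per1, against 17 of 19 in RERE, 0 of 19 in EpiRE and 19 of 19 in WT. The median amplitude of these genes was 0.104 in BRE, within a range of 0.0533 to 0.662, against 1.16 in WT. Over all genes tested in BRE, 1.14% were called and the median amplitude was 0.0717. Over all 31 genes of the clock lists, which add outputs, kinases and ligases, 3 were called, namely Per1, Tsc22d3 and Lonrf3, and the same number without the library labelled BRE CT20 replicate 1. Without 1 BRE library the count was 1 to 4, with 1 without CT16 replicate 4, and without all BRE libraries of replicate number 2 or of replicate number 4 it was 0. The interaction of genotype with cosine and sine was called for 14 of 32 clock genes between BRE and WT, all of them core genes, and for 14 of 32 between BRE and RERE. Between BRE and EpiRE it was called for 0 clock genes. Over all genes these interactions were called for 627 of 11016 genes between BRE and WT (5.69%), for 461 of 10991 between BRE and RERE (4.19%) and for 0 of 11002 between BRE and EpiRE (0%). In the comparison with EpiRE 941 genes had an unadjusted p under 0.05, limma-voom called 0 genes as well, and limma called 1 without BRE CT0 replicate 1.

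Among the activators, Arntl, on chromosome 7 at 113207465 to 113314126, averaged 3.88 ± 0.14 log2 RPKM in BRE and 3.88 ± 0.83 in WT (SD, n = 24 each). In BRE it ranged between 3.68 and 4.00 in the libraries of CT4 to CT16, and its highest value, 4.37, was that of the library labelled BRE CT20 replicate 1. WT libraries read 2.51, 2.53, 2.97 and 2.98 at CT12 and 4.69, 4.71, 4.72 and 4.85 at CT20. The Arntl value thus stood in BRE between the trough and the peak of WT and hardly moved with CT, with an amplitude of 0.06 ± 0.04 (SE) and an adjusted p of 0.618. A read count of the whole gene does not tell transcripts of the stopped allele from full ones, so it checks the labels only through the lost rhythm. Npas2, the paralog of Clock on chromosome 1 at 39193731 to 39363236, read 4.14 to 4.64 in the 20 BRE libraries of CT0 to CT16. WT libraries spanned 0.98 at CT8 to 3.93 at CT0. All 24 BRE libraries but the library labelled BRE CT20 replicate 1, at 3.68, lay above all WT libraries.

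Among the repressors, Nr1d1, on chromosome 11 at 98767932 to 98775333, was lower in every BRE library of CT0 to CT16 than in any WT library. It read 2.05, 2.19, 2.14 and 2.06 log2 RPKM in BRE at CT8, against 7.40, 7.37, 7.25 and 7.45 in WT at CT8. At CT20, the trough of WT, the library labelled BRE CT20 replicate 1 read 3.21 and the other BRE libraries 2.5, 1.83 and 2.2, against 3.19 to 3.38 in WT. The groups thus met at CT20 through 1 library. Cry1, the repressor encoded on chromosome 10 at 85131700 to 85185064, stood high in BRE, at 5.39, 5.49, 5.48 and 5.47 at CT12, against 4.16, 4.34, 4.21 and 3.94 in WT. Dbp, an output factor encoded on chromosome 7 at 45705088 to 45710203, read 2.46, 2.56, 2.03 and 2.22 in BRE at CT8, against 6.72, 6.57, 6.94 and 7.04 in WT. Dbp stayed at 2.56 or lower in all 24 BRE libraries, with an amplitude of 0.13 ± 0.06 in BRE and 2.85 in WT. Per2 differed from these genes in its scatter. At CT8 it read 1.57, 1.20, 2.81 and 2.92 in BRE, against 3.30, 3.33, 3.73 and 4.16 in WT, and at CT20 0.95, 3.05, 1.52 and 2.62 in BRE, against 2.25, 2.34, 0.88 and 1.87 in WT. The Per2 amplitude in BRE was 0.34 ± 0.19 (adjusted p = 0.502), so a rhythm was not detectable within this spread between mice.

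**Figure D3:**
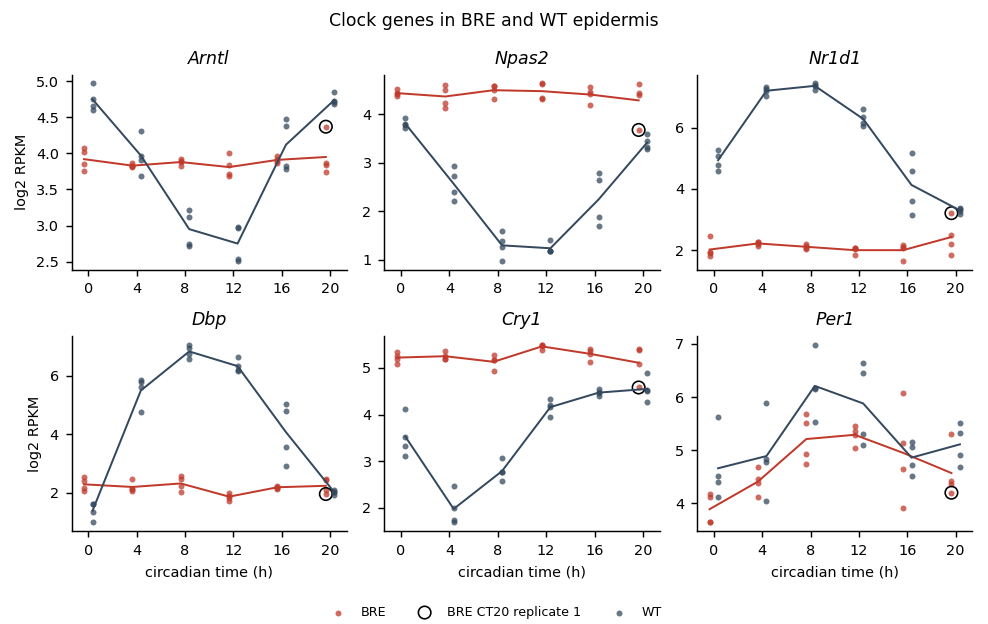
Log2 RPKM of 6 clock genes by circadian time, with 1 point for each library and lines through the means of 4, for BRE (red) and WT (dark blue); black circles mark the library labelled BRE CT20 replicate 1. Arntl, Npas2, Nr1d1, Dbp and Cry1 move little in BRE while they swing in WT, and Per1 is low at CT0 and high at CT8 and CT12 in BRE as well.

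The level at which the clock genes stood also differed from WT. With CT as a factor beside genotype, limma called a BRE minus WT difference for 20 of 32 clock genes, 6 higher and 14 lower in BRE, while 4066 of all 11016 genes were called in either direction (36.9%). Several targets of BMAL1 were lower in BRE. Nr1d1 differed by -3.41 ± 0.25 log2 (SE; adjusted p = 4.67e-14), Nr1d2 by -2.56 ± 0.15 (3.38e-17), Dbp by -2.17 ± 0.33 (1.44e-06), Per3 by -1.92 ± 0.22 (2.9e-09) and Ciart by -1.50 ± 0.23 (1.12e-06). Npas2 was higher in BRE by 1.98 ± 0.17 (1.33e-12), Cry1 by 1.67 ± 0.15 (9.77e-12) and Nfil3, the gene of a repressor that acts on the sites of Dbp, by 0.56 ± 0.18 (0.011). The Nfil3 call was lost when replicate number 1, 2 or 4 was left out (adjusted p up to 0.0798). For Arntl the difference was 0.01 ± 0.12 (0.979) and for Per2 0.07 ± 0.31 (0.874). The count was also 20 without the library labelled BRE CT20 replicate 1.

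Per1 was the one core clock gene with a called rhythm in BRE, and it moved with genes that glucocorticoids are known to induce. Of 21 measured genes of a glucocorticoid list, limma called 5 in BRE, Per1, Tsc22d3, Fkbp5, Zbtb16 and Glul, and all 5 peaked between CT11.5 and CT12.5. The median amplitude of the list was 0.178, against 0.0717 over all genes tested in BRE. The 7 T cell markers tested had 0.197, with 0 at an unadjusted p under 0.05 in limma. Such a median alone thus does not show a rhythm. Of the 21 fitted peaks of the glucocorticoid list, 13 fell between CT10 and CT16. Of all 10970 genes tested, 125 were called and 2353 had a fitted peak in this window. Genes of a list can move together in the same mice, so its peaks are not separate observations. In WT 15 of the 21 genes were called. The rhythm of none of the 21 differed between BRE and WT by the interaction test in limma (0 at an adjusted p under 0.05 by limma-voom too), which does not show that they are alike. The other genes of the list did not pass, among them Klf9 with an amplitude of 0.27 ± 0.08 (adjusted p = 0.175), Sgk1 with 0.19 ± 0.07 (0.252) and Dusp1 with 0.14 ± 0.11 (0.697).

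Fkbp5 encodes a co-chaperone that binds the glucocorticoid receptor. It read 4.22, 3.08, 3.24 and 2.69 log2 RPKM in BRE at CT12, and 1.01, 1.23, 1.84 and 0.95 in BRE at CT0, so these times did not overlap. In WT it read 2.76, 2.94, 5.21 and 4.37 at CT12 and 1.82, 1.56, 2.96 and 2.03 at CT0, with overlap. Its amplitude was 1.01 ± 0.22 in BRE (adjusted p = 0.043; peak CT12.5) and 0.81 ± 0.18 in WT (0.006; CT12.4). Tsc22d3 encodes GILZ, an anti-inflammatory protein. It read 6.20, 5.24, 5.35 and 5.23 at CT12 in BRE and 4.25, 4.08, 3.80 and 4.22 at CT0, with an amplitude of 0.74 ± 0.13 in BRE (0.0198) and 0.60 ± 0.12 in WT (0.0023). Zbtb16, a transcription factor gene, read 6.35, 5.4, 5.27 and 4.86 at CT12 in BRE and 3.78, 3.77, 3.65 and 3.44 at CT0, and Glul, the glutamine synthetase gene, read 6.40, 5.87, 5.97 and 5.42 at CT12 and 3.84, 4.40, 3.98 and 4.84 at CT0. In each of these genes the 4 BRE libraries of CT12 lay above the 4 of CT0. The genes were called with peaks near CT12 on these same libraries, so this order is no separate support.

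Per1 itself read 5.37, 5.05, 5.46 and 5.29 log2 RPKM at CT12 and 3.64, 4.18, 4.12 and 3.65 at CT0 in BRE, against 5.31, 5.10, 6.65 and 6.45 at CT12 and 4.51, 4.40, 5.62 and 4.12 at CT0 in WT. Its amplitude was 0.66 ± 0.13 in BRE (adjusted p = 0.028; peak CT11.8) and 0.67 ± 0.17 in WT (0.0154; CT10.1). Single mice stood high together across these genes. CT16 replicate 1 read 6.08 for Per1, 6.55 for Tsc22d3 and 6.55 for Glul, above the other CT16 libraries, and CT8 replicate 3 read 4.53 for Fkbp5 and 6.25 for Zbtb16, above the other CT8 libraries. Without each BRE library in turn, Tsc22d3 and Glul were called every time, while the call was lost without 6 of the 24 libraries for Per1 (highest adjusted p = 0.0609, without CT12 replicate 3), without 12 for Zbtb16 (0.0765) and without 15 for Fkbp5 (0.0925), the last 2 also highest without CT12 replicate 3. The list had 2 to 5 called genes in these fits, with 2 without CT0 replicate 3, CT0 replicate 4, CT12 replicates 1, 3 and 4 or CT16 replicate 4, 5 without the library labelled BRE CT20 replicate 1, and 1 without the 3 libraries that correlated least with the other BRE libraries. Leaving out all 6 BRE libraries of 1 replicate number gave 0 to 5.

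The promoters of Per1 and Fkbp5 are shown because both genes followed CT in BRE epidermis and both hold an E-box, the site of BMAL1, near a start of transcription. They run 5′ to 3′ on the gene's own strand, 250 bases before to 50 after a RefSeq start (GRCm38.p6), at chr11:69098699-69098998 on the plus strand for Per1, which is 1 of 2 starts listed, and chr17:28486100-28486399 on the minus strand for Fkbp5. Capitals mark the E-box CACGTG, which reads the same on both strands.
Per1: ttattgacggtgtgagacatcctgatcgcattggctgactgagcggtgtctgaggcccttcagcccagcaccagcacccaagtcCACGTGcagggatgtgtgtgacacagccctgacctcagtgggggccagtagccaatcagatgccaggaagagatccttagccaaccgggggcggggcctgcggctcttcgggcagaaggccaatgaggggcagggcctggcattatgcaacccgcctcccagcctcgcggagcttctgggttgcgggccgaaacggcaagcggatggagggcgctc
Fkbp5: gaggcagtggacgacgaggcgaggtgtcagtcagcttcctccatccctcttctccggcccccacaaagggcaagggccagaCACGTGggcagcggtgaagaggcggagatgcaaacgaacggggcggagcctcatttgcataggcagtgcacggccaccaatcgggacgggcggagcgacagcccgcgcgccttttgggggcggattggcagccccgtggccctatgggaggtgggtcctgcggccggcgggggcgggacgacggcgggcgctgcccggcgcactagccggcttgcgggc
The E-box begins at base -166 relative to the start in Per1 and at -169 in Fkbp5. It is found in 7.2% of all 32851 RefSeq promoters of this length. By gene, it is found in 12.4% of the 8606 tested genes with an entry and in 19 of 98 genes called in BRE with an entry (19.4%). A match describes letters, not binding.

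Outside the clock and glucocorticoid genes, several genes peaked around the start of activity. Sh3d21, on chromosome 4 at 126150602 to 126163491, had the smallest p of all genes in BRE. It read 6.31, 6.18, 6.37 and 6.13 log2 RPKM at CT12 and 5.29, 5.36, 5.22 and 5.21 at CT0 in BRE, against 6.17, 6.59, 6.77 and 6.61 at CT12 and 5.48, 5.49, 5.92 and 5.51 at CT0 in WT. Its amplitude was 0.41 ± 0.06 in BRE (adjusted p = 0.00985; peak CT12.4) and 0.39 ± 0.06 in WT (3.13e-04; CT11.2), and it was called in BRE without any 1 library. Il22ra2 encodes a soluble receptor that binds interleukin 22 and keeps it from keratinocytes. It read 6.10, 5.22, 5.64 and 5.51 at CT12 and 4.26, 4.47, 3.78 and 3.99 at CT0 in BRE, against 4.39, 4.72, 5.15 and 5.20 at CT12 and 4.13, 4.24, 4.94 and 4.20 at CT0 in WT. The Il22ra2 amplitude was 0.76 ± 0.13 in BRE (0.0198; CT14.5) and 0.36 ± 0.09 in WT (0.0101; CT15.3), and the difference was not called (interaction adjusted p = 0.249). Spock2, which encodes an extracellular proteoglycan, read 2.95, 2.89, 3.07 and 2.63 at CT12 and 0.88, 1.3, 0.63 and 0.61 at CT0 in BRE, the largest amplitude among called genes averaging over 1 log2 RPKM in BRE, at 1.02 ± 0.16 (0.0115), against 0.64 ± 0.12 in WT.

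Further genes of large amplitude with evening peaks were Ifngr1, the interferon gamma receptor gene (0.46 ± 0.08, adjusted p = 0.0198, peak CT12.7), Bcl6, a transcriptional repressor gene (0.36 ± 0.06, 0.0198, CT12.6), and Trp53inp1, a stress gene induced by p53 and FOXO factors (0.51 ± 0.09, 0.0198, CT11.8). The 3 genes were called without any 1 BRE library. In WT, Bcl6 was called with 0.24 ± 0.07 (0.0362), while Ifngr1 (0.127) and Trp53inp1 (0.112) were not. A difference in rhythm between BRE and WT was not called for any of the 3, which does not show that they are alike. Dst, a gene of the hemidesmosome, peaked at CT12.6 in BRE and CT10.6 in WT, with amplitudes of 0.29 ± 0.05 in BRE (0.0198) and 0.51 ± 0.07 in WT.

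**Figure D4:**
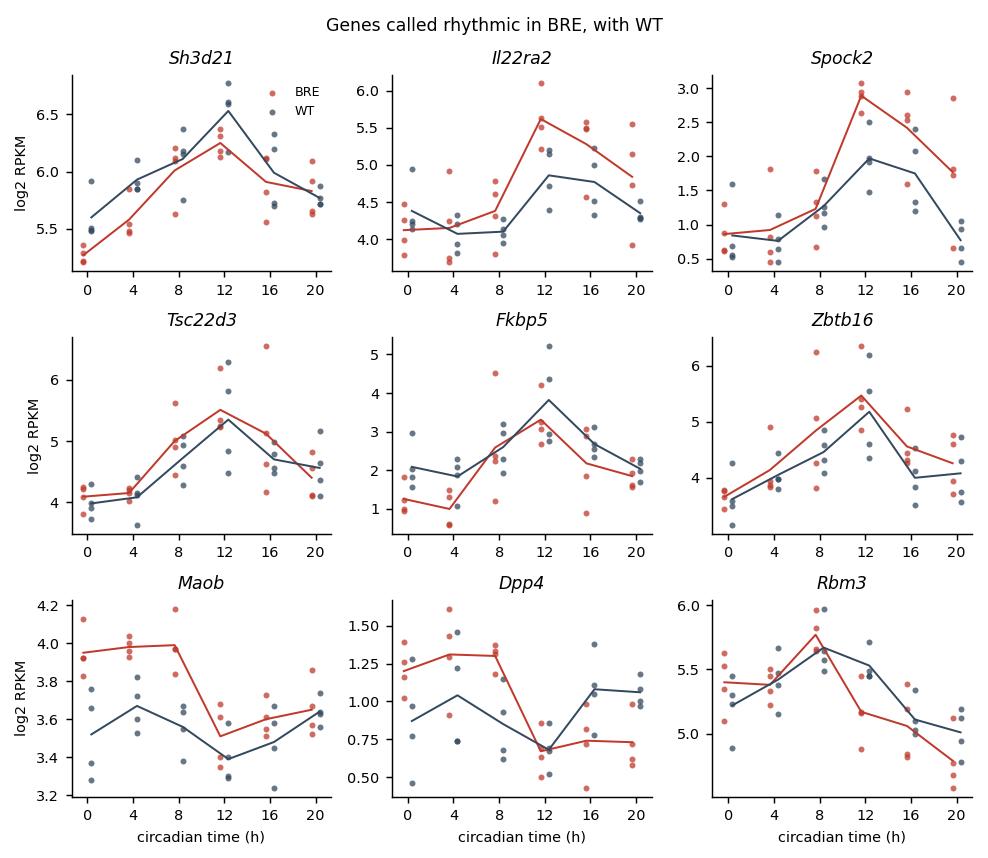
Log2 RPKM of 9 genes called rhythmic in BRE by circadian time, with 1 point for each library and lines through the means of 4, for BRE (red) and WT (dark blue). Sh3d21, Il22ra2, Spock2, Tsc22d3, Fkbp5 and Zbtb16 are higher at CT12 than at CT0 in BRE, while Maob and Dpp4 are high at CT0 to CT8 and low at CT12 in BRE.

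A group of 25 genes called in BRE also differed in rhythm from WT. Lgmn encodes legumain, a lysosomal protease, on chromosome 12 at 102394084 to 102439813. It read 3.82, 3.78, 4.01 and 3.95 log2 RPKM at CT12 and 3.23, 3.51, 3.55 and 3.45 at CT4 in BRE, against 3.44, 3.82, 3.58 and 3.74 at CT12 and 3.47, 3.51, 3.47 and 3.74 at CT4 in WT. The CT12 and CT4 libraries did not overlap in BRE and did in WT, with amplitudes of 0.25 ± 0.04 in BRE (adjusted p = 0.00985) and 0.02 ± 0.04 in WT (0.941), and the interaction was called (0.0216). Slc7a6, an amino acid transporter gene, read 5.77, 5.36, 5.5 and 5.41 at CT12 and 5.01, 5.09, 4.88 and 4.84 at CT0 in BRE, against 5.07, 5.23, 5.42 and 5.39 at CT12 and 5.28, 5.30, 5.43 and 5.38 at CT0 in WT, with an interaction of 0.00251. Dpp4 encodes a surface peptidase. It read 1.31, 1.33, 1.37 and 1.18 at CT8 and 0.69, 0.63, 0.50 and 0.86 at CT12 in BRE, against 1.15, 0.93, 0.68 and 0.62 at CT8 and 0.52, 0.86, 0.67 and 0.69 at CT12 in WT, with an interaction of 0.0184. Scin, the gene of the actin-severing protein scinderin, had an amplitude of 0.30 ± 0.05 in BRE and 0.05 ± 0.04 in WT (interaction 0.0393). In Lgmn, Slc7a6, Dpp4 and Scin no rhythm was called in WT. They are among 8 of the 25 genes of which this holds, while the other 17 were called in WT as well, with another peak or amplitude. Ecm1, an extracellular matrix gene, is one of these, with 0.31 ± 0.05 and a peak at CT18.9 in BRE and 0.18 ± 0.04 and CT14.1 in WT (interaction 0.00887). Without the library labelled BRE CT20 replicate 1 the group held 26 genes, 16 of them called in WT. Maob, encoding a monoamine oxidase, read 3.40, 3.61, 3.35 and 3.68 at CT12 and 3.84, 4.18, 3.97 and 3.97 at CT8 in BRE, against 3.29, 3.30, 3.40 and 3.58 at CT12 and 3.55, 3.67, 3.38 and 3.64 at CT8 in WT, with an amplitude in BRE of 0.26 ± 0.04 (0.0123), and its difference from WT was not called (0.124).

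S phase genes were high at CT0 and low at CT12 in BRE, opposite to WT. The list holds genes of DNA replication, such as the Mcm helicase subunits, the GINS subunits and E2f1, the activator of their transcription. Of its 26 measured genes, limma called 4 in BRE, Gins2, Mcm2, Mcm6 and E2f1, and 20 had an unadjusted p under 0.05. For all 10970 genes tested in BRE these counts were 125 and 2071. In BRE 24 of the 26 fitted peaks fell between CT22 and CT4, whether called or not, as did 3651 of all 10970 genes tested. Genes of a list can move together in the same 24 mice, so these peaks are not separate observations. All 5 sebaceous gland markers tested also peaked in this window, with 0 at an unadjusted p under 0.05 in limma. Median amplitude was 0.294 in BRE, against 0.0717 over all genes, and 0.405 in WT. The list of G2 and mitosis had 0.279 in BRE with 0 of 28 genes at an unadjusted p under 0.05 in limma. Such a median alone thus does not show a rhythm. The rhythm differed from that of WT in 22 of 27 genes and from that of RERE in 24 of 26. These differences were called for 5.69% and 4.19% of all genes. The list mean, taken as deviation from each gene's mean in its genotype, was 0.358 ± 0.244 (SD, n = 4) at CT0 and -0.4 ± 0.22 at CT12 in BRE, against -0.281 ± 0.258 at CT0 and 0.241 ± 0.159 at CT12 in WT. At the other times the BRE list mean lay nearer its average. It was 0.066 ± 0.171 at CT4, -0.001 ± 0.291 at CT8, -0.063 ± 0.33 at CT16 and 0.041 ± 0.276 at CT20.

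Mcm6, on chromosome 1 at 128331590 to 128359664, read 4.38, 4.40, 4.40 and 4.47 log2 RPKM at CT0 and 3.71, 3.57, 3.43 and 3.61 at CT12 in BRE. In WT it read 4.18, 3.76, 3.73 and 4.13 at CT0 and 4.83, 4.74, 4.58 and 4.58 at CT12. The times did not overlap within either genotype, and their order was reversed. The Mcm6 cosine peaked at CT0.788 in BRE (amplitude 0.31 ± 0.06, adjusted p = 0.0392) and at CT12.4 in WT (0.46 ± 0.06, 4.96e-05), and the interaction was called at 3.95e-07. Gins2 read 3.52, 3.74, 3.88 and 4.06 at CT0 and 2.29, 2.78, 2.31 and 2.44 at CT12 in BRE, against 3.31, 2.68, 2.39 and 3.40 at CT0 and 4.05, 3.97, 3.72 and 3.76 at CT12 in WT. E2f1 read 2.68, 2.68, 2.87 and 3.04 at CT0 and 1.83, 1.98, 1.54 and 1.73 at CT12 in BRE, against 2.38, 1.53, 1.40 and 1.93 at CT0 and 3.40, 3.26, 3.39 and 2.91 at CT12 in WT. Mcm2 followed the same course, with an amplitude of 0.42 ± 0.09 in BRE and 0.60 ± 0.09 in WT and an interaction of 2.48e-06. Mcm5 did not pass in BRE (0.47 ± 0.11, adjusted p = 0.0547) but differed from WT.

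The BRE calls in this list were less stable than the differences from WT. Without 1 BRE library at a time, 0 to 13 S phase genes were called in BRE, while 21 to 24 differed from WT and 22 to 25 from RERE. Without the library labelled BRE CT20 replicate 1 the numbers were 3 called, 21 differing from WT and 23 from RERE. With replicate number as a block, 0 were called in BRE. The same held without replicate number 1, 2 or 4 and without the 3 libraries of lowest correlation. In these settings 18 to 23 genes differed from WT and 16 to 24 from RERE. Without replicate number 3, 1 gene was called in BRE. The call in BRE was lost without 7 of the 24 libraries for Gins2 (highest adjusted p = 0.0689), without 12 for Mcm6 (0.0891), without 15 for Mcm2 (0.0957) and without 17 for E2f1 (0.105), each highest without CT12 replicate 3. The summed level of 8 T cell markers, genes of a cell type that also divides, was 73.7 to 92.7 RPKM at CT0 and 52.8 to 75 at CT12 in BRE, and its part in these values was not tested. Summed basal keratinocyte genes were 14000 to 15300 RPKM at CT0 and 12100 to 13600 at CT12.

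**Figure D5:**
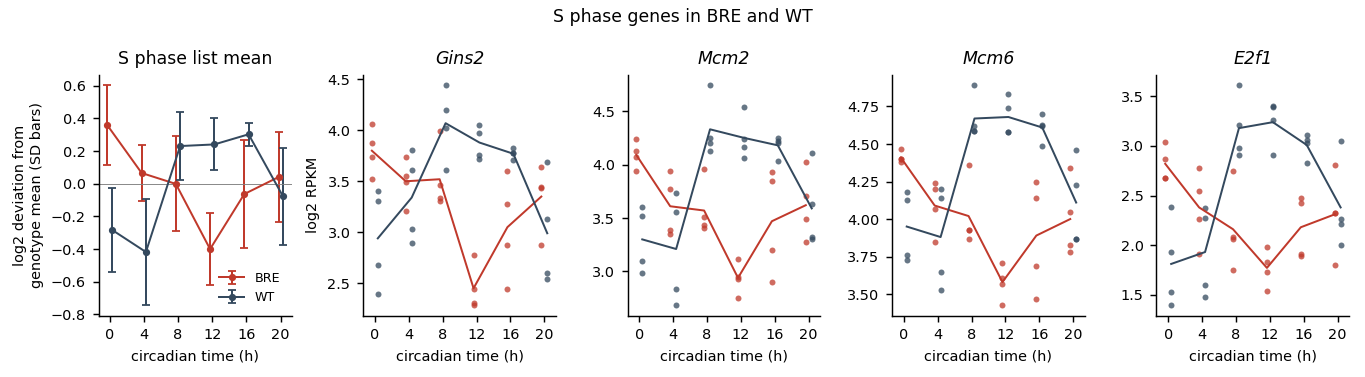
Left, mean of the S phase genes as log2 deviation from the mean of their genotype, with SD over 4 libraries; right, log2 RPKM of Gins2, Mcm2, Mcm6 and E2f1 with 1 point for each library and lines through the means, for BRE (red) and WT (dark blue), by circadian time. The list mean is 0.358 at CT0 and -0.4 at CT12 in BRE, against -0.281 at CT0 and 0.241 at CT12 in WT.

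The promoter of Mcm6 is shown as that of an S phase gene whose order of times was reversed. It lies at chr1:128359656-128359955 on the minus strand (RefSeq, GRCm38.p6) and is printed 5′ to 3′ in the gene's direction. Capitals mark matches to the E2F site TTCGCGC, which appear here as its reverse complement.
Mcm6: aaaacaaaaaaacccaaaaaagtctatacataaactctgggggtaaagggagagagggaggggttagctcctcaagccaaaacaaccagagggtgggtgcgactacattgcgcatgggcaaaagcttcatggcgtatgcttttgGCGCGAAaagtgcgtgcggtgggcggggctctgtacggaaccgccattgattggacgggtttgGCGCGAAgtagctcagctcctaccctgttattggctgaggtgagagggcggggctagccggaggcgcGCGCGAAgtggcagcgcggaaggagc
It holds 3 matches on 300 bases. Among all promoters 1.6% hold at least 1 match on either strand. Of 23 S phase genes with an entry 6 do (26.1%), against 3.7% of the tested genes with an entry.

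Genes of G2 and mitosis were not called in BRE. Of 28 measured genes limma called 0, and limma-voom 0, and none had an unadjusted p under 0.05 (0 genes), against 27 of 28 called in WT. Of all 10970 genes tested in BRE, limma called 125, and 2071 had an unadjusted p under 0.05. The median amplitude of the list was 0.279 in BRE and 0.79 in WT. The list mean in BRE ranged between -0.853 and 1.05 among the 4 libraries of CT0, so mice of the same time differed widely. Aurka, a mitotic kinase gene, had the smallest p, with an amplitude of 0.30 ± 0.12 in BRE (adjusted p = 0.272) and 0.73 in WT. The rhythm differed from WT in 13 of 28 genes, 8 to 16 without 1 BRE library, and from RERE in 7 of 28, 2 to 7 without 1 BRE library. The shares over all genes were 5.69% against WT and 4.19% against RERE.

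The cold-inducible RNA-binding genes Rbm3 and Cirbp, which rise when body temperature drops, were high in the rest phase. Rbm3 read 5.64, 5.82, 5.66 and 5.96 log2 RPKM at CT8 and 4.77, 4.68, 5.12 and 4.58 at CT20 in BRE, against 5.49, 5.57, 5.64 and 5.97 at CT8 and 4.78, 4.94, 5.19 and 5.12 at CT20 in WT. The times did not overlap in either genotype. The Rbm3 amplitude was 0.38 ± 0.07 in BRE (adjusted p = 0.0215; peak CT6.3) and 0.32 ± 0.05 in WT (CT8.0), and the call in BRE was lost without CT16 replicate 4 (0.0566). Cirbp did not pass in BRE, with 0.51 ± 0.12 (0.0637; CT4.5), and limma-voom called it.

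Cytosolic heat shock chaperones showed 1 call beside many small p-values. Of 21 measured, limma called 1 in BRE, Hsp90aa1, and 13 had an unadjusted p under 0.05, against 125 and 2071 of all 10970 genes tested. Hsp90aa1 read 5.16, 5.45, 5.09 and 5.48 log2 RPKM at CT16 and 4.81, 4.76, 4.83 and 4.57 at CT4 in BRE, against 5.27, 4.96, 5.30 and 5.24 at CT16 and 4.72, 4.89, 5.37 and 5.14 at CT4 in WT. It peaked at CT16.3 in BRE and CT21.2 in WT, with amplitudes of 0.27 ± 0.05 in BRE (adjusted p = 0.0312) and 0.29 ± 0.07 in WT (0.00761) and a called interaction (0.0398). The call in BRE was lost without 6 of the 24 libraries (highest adjusted p = 0.069, without CT16 replicate 4), and the list had 0 to 7 called genes in these fits. Hsph1 followed with 0.44 ± 0.10 at CT16.8 and an adjusted p of 0.0503, and Stip1 with 0.20 ± 0.05 at CT18.2 and 0.0664. Of 18 chaperones and factors of the endoplasmic reticulum, 1 was called in BRE, Herpud1, a gene of protein degradation there (0.24 ± 0.05, 0.0392, CT12.3), and 14 had an unadjusted p under 0.05. The Herpud1 call was lost without 11 of the 24 libraries (highest adjusted p = 0.0786, without CT12 replicate 3), and the list had 0 to 4 called genes. Without the library labelled BRE CT20 replicate 1 2 heat shock genes and 1 gene of this list were called.

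Most of the WT rhythm was missing from BRE, and part of it remained. Of the 125 genes called in BRE, 75 were also called in WT, which is 60.0% of the BRE list and 2.04% of the WT list. Their fitted peaks lay a median of 1.69 h apart, 58 within 4 h and 4 over 8 h, and their median amplitude was 0.271 in BRE and 0.289 in WT. With RERE 62 were shared (49.6% of the BRE list and 2.9% of the RERE list). Among all genes tested in each genotype, 33.1% were called in WT and 19.4% in RERE, so part of this sharing comes from those shares alone. Leaving out the library labelled BRE CT20 replicate 1, 85 genes were shared with WT (55.2% of the 154 then called) and 72 with RERE (46.8%). Over the 3649 genes called in WT outside the clock lists, the BRE cosine and sine coefficients had a least-squares slope of 0.202 ± 0.060 on those of WT (jackknife SE over 24 BRE libraries). By the same measure the slope was 0.054 ± 0.017 for 26 clock genes, 0.756 ± 0.125 for 21 glucocorticoid genes, -0.545 ± 0.155 for 27 S phase genes and 0.132 ± 0.233 for 28 genes of G2 and mitosis. These slopes without the library labelled BRE CT20 replicate 1 were 0.192, 0.061, 0.74, -0.535 and 0.089 in the same order. In RERE the slope on WT was 0.739 ± 0.076 over the 3649 genes, 0.991 ± 0.05 for the clock genes, 0.878 ± 0.141 for the glucocorticoid genes and 1.113 ± 0.167 for the S phase genes. In EpiRE it was 0.282 ± 0.073 over the 3649 genes, 0.228 ± 0.079 for the clock genes, 0.496 ± 0.178 for the glucocorticoid genes and -0.134 ± 0.236 for the S phase genes. The coefficients of WT stand in every slope, so they were not tested against each other.

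Among the 627 genes whose rhythm differed between BRE and WT, 582 were called in WT, 25 in BRE and 37 in neither. The amplitude was smaller in BRE in 572, with a median of 0.101 in BRE and 0.263 in WT. Leaving out the library labelled BRE CT20 replicate 1, 623 genes differed from WT, 577 of them called in WT, and 448 from RERE. Outside the clock lists the smallest p belonged to Ttc9, which in BRE read between 2.44 and 3.01 in all libraries but the library labelled BRE CT20 replicate 1, at 2.12, and in WT 0.25, 0.28, 0.21 and -0.08 at CT12 and 2.01, 1.79, 2.34 and 2.16 at CT20. Mthfd1l, an enzyme of mitochondrial folate metabolism, was set against WT in phase, at 0.46 ± 0.12 and CT2.3 in BRE, where it did not pass (adjusted p = 0.0778), and 1.22 ± 0.13 and CT13.1 in WT. Ccnd2, the cyclin D2 gene, had an amplitude of 0.08 ± 0.06 in BRE and 0.81 ± 0.07 in WT, and Sod2, the mitochondrial superoxide dismutase gene, 0.10 ± 0.03 in BRE and 0.37 ± 0.03 in WT. All 15 genes of smallest p against WT and all 5 against RERE were called under each of the 11 alternatives in which they were tested.

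Other lists of epidermal biology held few or no calls in BRE by limma. Among all 10970 genes tested, 125 were called (1.14%) and 2071 had an unadjusted p under 0.05. At that share lists of this size hold few calls, so 0 calls in a list says little about it. Of 14 genes of basal keratinocytes, Dst and Cd44 were called, and Cd44, a hyaluronan receptor gene, had 0.20 ± 0.04 and a peak at CT4.3. Of 20 measured genes of differentiating layers 0 were called, while limma-voom called 0 too and 3 had an unadjusted p under 0.05, and Ivl, the involucrin gene, had 0.34 ± 0.12 (adjusted p = 0.203). Of 20 genes of barrier lipids 0 were called (1 with an unadjusted p under 0.05; limma-voom called 0), and of 24 genes of cholesterol synthesis 0 (7 and 0). Of 18 genes known from fasting and FOXO factors 0 were called and 7 had an unadjusted p under 0.05, with Txnip at 0.54 ± 0.12 (0.0515; CT12.1), which limma-voom called. Of 23 respiratory chain genes 0 were called (2 and 0), of 20 ribosomal protein genes 0 (7 and 0) and of 21 immediate early genes 0 (0 and 0). Gpx1, the glutathione peroxidase gene, was the 1 call among 20 antioxidant genes, with 0.15 ± 0.03 at CT2.1, and Cdk4, the partner of D cyclins, the 1 among 10 genes of G1, with 0.18 ± 0.04 at CT2.0. These small rhythms lay near the threshold, and without 1 BRE library the call was lost in 16 of 24 fits for Gpx1 (adjusted p up to 0.106) and in 13 each for Cdk4 (0.0963) and Cd44 (0.0978), each highest without CT16 replicate 4.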

How the data were processed

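Polyadenylated RNA was sequenced in 96 libraries, 24 of them BRE. The submitters' processing notes name featureCounts 1.6.0, edgeR, the aligner HISAT2 2.2.1, the trimmer Trimmomatic 0.36, SAMtools 1.3.1 and the build mm10. Whether counting used molecular identifiers or strand is not stated by these sources. The deposited values are log2 RPKM made by the authors, and the deposited p-values and q-values are those of JTK_CYCLE and BIOCYCLE, per the file headers. A further 96 columns with codes that match no label were not used. The leading digit of these codes is out of order in the BRE and EpiRE tables, so BIOCYCLE column names were used for CT.

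For 22489 of 22497 genes (99.96%) the log2 RPKM could be turned back into reads, assuming a prior of 0.25 reads. Of the results, 99.76% lay no more than 0.1 from a whole number. These reads served for depth and limma-voom. Genes averaging 0 log2 RPKM or more in the libraries of a fit were fitted with limma 3.58.1 in R 4.3.3 (mean trend, moderated F test, Benjamini-Hochberg over all genes tested, called under 0.05) with a 24 h cosine and sine, with CT as a factor, with genotype by cosine and sine, or with genotype beside CT. The F tests have no side and the level test was two-sided. The fits were tested on simulated cosines with independent noise in each gene and library. That does not bear on how far the counts depend on single libraries. Gene positions are from GENCODE vM21 (GRCm38), promoters from RefSeq. The named genes are all clock genes tested, the 25 genes of largest amplitude called in BRE above 5 RPKM, up to 4 called genes of each of 47 lists (or the 2 of smallest p), those of smallest p between genotypes (15 for WT, 5 each for RERE and EpiRE), and the 10 genes of largest BRE amplitude called in both BRE and WT. Lgmn, Maob, Dpp4, Mir1942, Cirbp, Hsph1, Stip1, Klf9, Sgk1, Dusp1, Mcm5 and Txnip, where outside this rule, were named after their values were seen. Single results of a few genes of the lists are not reported here. The members and lists were chosen with earlier results of these data known. All errors given rest on how libraries of a group differ. Alternatives were another filter, a pseudocount of 1 RPKM, median scaling, limma-voom, replicate number as a block, and leaving out libraries.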

Additional observations from a re-analysis of the deposited data

Results flagged for a closer look

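Among 156 groups of 4 BRE libraries examined for a value far from the other 3, 8 held one, and chance gives about 1 in 20. The low values were Nr1d1 in CT12 replicate 4 at 1.84 log2 RPKM, where the others read 2.04 to 2.07, and Il22ra2 in CT16 replicate 3 at 4.57, where the others read 5.48 to 5.58. The high values were Per2 in CT0 replicate 1 at 2.82 (others 2.25 to 2.29), Tsc22d3 in CT12 replicate 1 at 6.20 (5.23 to 5.35), Zbtb16 in CT4 replicate 3 at 4.91 (3.84 to 3.95), Mcm6 in CT8 replicate 4 at 4.36 (3.87 to 3.93) and Slc7a6 in CT8 replicate 3 at 5.67 (5.23 to 5.28). Depth was low in CT0 replicate 4, with 12.6 M recovered reads beside 18.5 to 18.6 M in the other libraries of CT0.

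Rhythms differed between genotypes by limma's interaction test in several lists. Clock genes differed in 14 of 32 between BRE and WT and in 14 between BRE and RERE. S phase genes differed in 22 of 27 against WT and in 24 of 26 against RERE, and genes of G2 and mitosis in 13 and 7 of 28. Over all genes tested the counts were 627 of 11016 against WT (5.69%) and 461 of 10991 against RERE (4.19%).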

How the results depend on the processing

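The count of 125 BRE rhythms was 54 with no filter, 76 with no mean trend, 41 with replicate number as a block and 0 by the authors' deposited q-values, and 39 without the 3 BRE libraries of lowest correlation, chosen after seeing the data. It stayed within 1.5 times with the stricter filter, the pseudocount, median scaling and limma-voom. The 31 genes of the CT factor became 20 with no filter, 65 with median scaling, 68 with limma-voom, 4 with the block and 53 without the 3 libraries. The 75 genes shared with WT became 30 with no filter and 24 with the block. The count against RERE became 307 at a mean of at least 2 log2 RPKM. Replicate numbers did not pair the libraries on average. Residuals of same-numbered BRE libraries correlated at means of -0.03 to -0.007, against a mean of 0.008 for other numbers. Single same-numbered pairs ran between -0.319 and 0.332. Leaving out a replicate number or a library gave 0 to 348 BRE rhythms, 0 to 102 genes of the CT factor, 305 to 700 genes against WT, 214 to 494 against RERE, 0 to 4 against EpiRE, and leaving out a replicate number gave 0 to 112 shared with WT, slopes of 0.134 to 0.239 and 14 to 16 clock level differences. The 0 rhythms came without replicate 2, with 9 without replicate 4, 41 without replicate 1 and 198 without replicate 3. Clock level differences that were not called changed sign, BRE minus WT: Arntl was -0.01 and Per2 -0.117 with the pseudocount, and Cry2 0.003 with median scaling. Without 1 replicate number these differences ran between -0.007 and 0.018 for Arntl, -0.034 and 0.205 for Per2, -0.062 and 0.022 for Cry2, and -0.009 and 0.277 for Tsc22d3. Dropping samples lowers power; the cause of the other shifts was not tested. Depth differed between times, and genes under 1 RPKM on average were tested only with no filter.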

Other observations

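Markers of other cell types showed no called gene in BRE, and limma-voom called 0 in each of the lists below. Only 125 of all 10970 genes were called by limma (1.14%), and 2071 had an unadjusted p under 0.05. Thus 0 calls in such short lists say little. Of 7 T cell markers tested limma called 0 (0 at an unadjusted p under 0.05), of 9 Langerhans and myeloid markers 0 (1), of 8 hair follicle markers 0 (0) and of 5 sebaceous gland markers 0 (0). Summed Langerhans and myeloid markers were 134 to 212 RPKM at CT12 and 148 to 211 at CT0. Summed sebaceous gland markers were 122 to 187 RPKM at CT12 and 169 to 260 at CT0. Genes of interferon response (0 of 9 called, 0 at an unadjusted p under 0.05) and of ribosome biogenesis (0 of 15, 3) were not called either.

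Hsp90aa1 had the smallest p between BRE and EpiRE, with an adjusted p of 0.113. Without BRE CT0 replicate 1 this was 0.0237, and without CT4 replicate 4 it was 0.375.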
